A study of Mus musculus with 27 samples.

Results

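The 42 genes described here are the cyclins, cyclin-dependent kinases and their inhibitors, replication and mitosis genes and p53 pathway genes listed by symbol as cell cycle and proliferation genes. Each symbol was matched through the GENCODE M21 annotation to the Ensembl gene in the deposited table, and all 42 were found among its 43346 genes, each in a single row. RNA sequencing was applied to hepatocytes, the main cell type of the liver, taken from female mice aged 12 weeks. The mice came from 9 inbred strains, with 3 libraries per strain: 129S1/SvImJ, A/J, C57BL/6J, CAST/EiJ, DBA/2J, NOD/ShiLtJ, NZO/HlLtJ, PWK/PhJ and WSB/EiJ. The labels name no treatment, and CAST/EiJ, PWK/PhJ and WSB/EiJ were bred from wild mice, as is known of these strains. The labels call the libraries of a strain biological replicates without naming the animals, so the p-values below measure the spread between these libraries, part of which may be technical.

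A dividing cell passes through G1, DNA synthesis (S phase), G2 and mitosis. Cyclins bind and activate cyclin-dependent kinases (CDKs), CDK inhibitors hold the kinases back, and active CDKs release E2F transcription factors from the retinoblastoma protein, which turns on the genes of DNA synthesis. Adult hepatocytes rest outside the cycle but re-enter it when liver mass is lost, and p53 with its targets halts cycling after damage.

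Library totals ran from 17015932 to 35078483 counts, with a median of 28344299. Levels are given as CPM, which are counts per 1000000 of the library size adjusted by TMM normalization, and 1 count corresponded to 0.0253 to 0.0515 CPM. The 10 hepatocyte markers, albumin (Alb) and Hnf4a among them, had counts in all 27 libraries and summed to between 124900 and 367500 CPM. Markers of other liver cells were also present. The 10 Kupffer cell (liver macrophage) markers summed to 33.4 to 414 CPM and the 10 endothelial markers to 62.2 to 776 CPM, both highest in PWK/PhJ replicate 1. The 8 stellate cell markers summed to 18.6 to 103 CPM, the 6 bile duct markers to 1.57 to 9.71 CPM and the 9 red cell markers to 15.5 to 65.2 CPM, with the red cell marker Epb42 at 0 in all 27 libraries. The 10 lymphocyte markers summed to 0.893 to 12.9 CPM, with 1 of them counted in all 27 libraries, and the 7 neutrophil markers to 0.193 to 3.23 CPM, with none. The 10 immediate early genes, which cell isolation can induce, summed to 70.5 to 318.8 CPM. In RNA from bulk preparations, fewer cells of a type and less RNA per cell cannot be told apart.

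The first question was which of these genes could be detected in resting adult hepatocytes. Every gene of G1, the CDK inhibitors, the Rb and E2F group, nucleotide supply and the p53 pathway was counted in all 27 libraries, as was every replication gene but Cdc6, whereas many genes of mitosis lay near the limit of counting. Of the 42 genes, 35 had at least 1 count in all 27 libraries and 28 had over 3 counts in all of them. The other 7 were Cdc6, Ccna2, Ccnb1, Bub1, Bub1b, Aurkb and Plk1, 6 of which are genes of G2 and mitosis. An exon on the opposite strand overlaps 15 of the 42 genes, among them Ccnd1, Ccnd3, Cdk4, Cdk6, Ccne2, Cdkn1a, E2f8, Rb1 and Cdc45, and reads of such pairs cannot be told apart without strand. Cdc6, which loads the replicative helicase onto origins, had at most 14 counts and a median of 2, and was the only member removed for low counts before testing. Of the 13 genes of G2 and mitosis, 7 were counted in all 27 libraries, 6 had a median count under 10 and only Aurka exceeded 3 counts everywhere.

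To compare levels between genes, CPM was divided by the length of the longest transcript in kilobases (kb) and averaged over the 27 libraries. The median over the 42 genes was 0.642 CPM per kb, and 15 of them reached 1 CPM per kb. The cyclin D1 gene Ccnd1 had the highest level, at 9.49 CPM per kb, followed by Cdk4, which cyclin D binds, at 8.91, and the replication clamp Pcna at 8.03. The 3 genes of the p53 pathway lay between 3.44 (Trp53) and 5.70 (Ccng1) CPM per kb. The genes of G2 and mitosis had a median of 0.193 CPM per kb, and the highest of them was the kinase gene Aurka at 0.767. The lowest members were the checkpoint kinase gene Bub1, at 0.0386 CPM per kb, and Cdc6, at 0.0254. The level per kb thus differed by role, with the range across libraries widest for Cdkn1a among the well expressed genes and for the mitosis genes among the low ones.

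**Figure D1:**
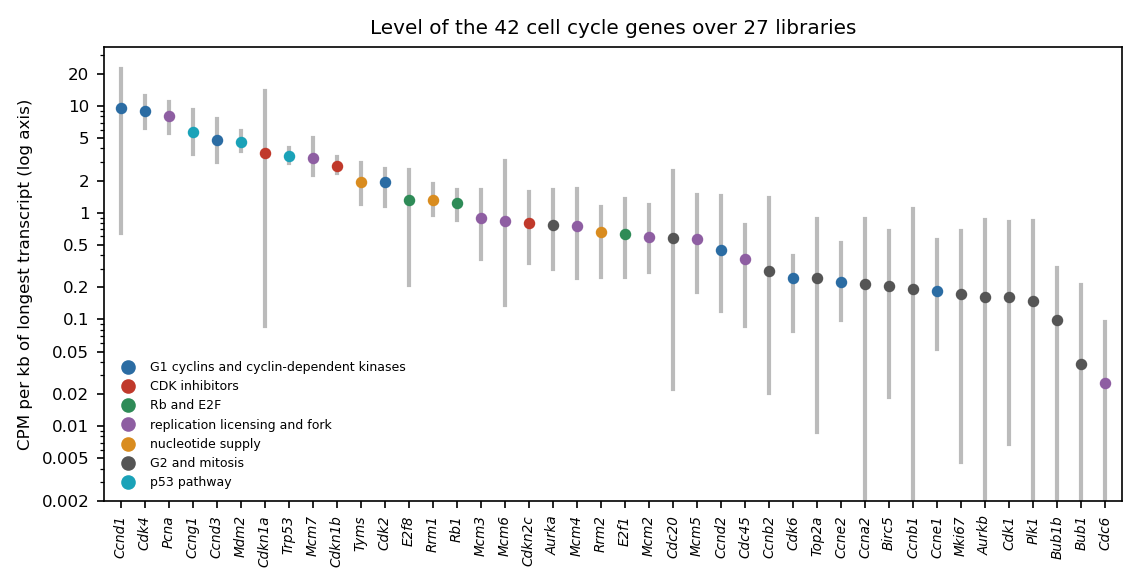
Mean CPM per kb of the longest transcript over 27 libraries for each of the 42 genes (points, log axis, coloured by role), with grey lines from the lowest to the highest library. Lines that reach the lower edge belong to the 7 genes with a library at 0 counts, and the genes of G2 and mitosis lie at 0.767 CPM per kb or below.

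The second question was which genes differed among the 9 strains, and in which strain. The test was edgeR's quasi-likelihood F test over all strains together, fitted to all 14482 genes that passed the filter, and a gene was called when its Benjamini-Hochberg adjusted p over those genes was under 0.05. Of the 41 members tested, 32 were called, against 74.2% of all genes tested, so the share of members (78%) was close to the background. A highest strain mean at least 2-fold above the lowest, together with a call, was found for 24 members (58.5%), against 49.4% of all genes. The median ratio of highest to lowest strain mean was 3.61 over the members and 2.27 over all genes tested, and by role it ran from 1.37 in the p53 pathway to 13.7 in G2 and mitosis. Complete separation was rare. All 3 libraries of the highest strain lay above every other library for 3 members, Ccnd3, Mcm2 and Tyms (7.32%, against 14.7% of all genes). For Mcm2 and Tyms, DBA/2J replicate 3 lay within a few counts of the lowest of these libraries. All 3 libraries of the lowest strain lay below every other library for Rb1 and Cdk1 (4.88%, against 10.8%). The 9 members not called for this strain effect were Ccne1, Cdkn2c, Rb1, Rrm1, Rrm2, Aurkb, Plk1, Birc5 and Trp53, with adjusted p from 0.0522 for Cdkn2c to 0.781 for Trp53.

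Each strain was then set against the mean of the other 8 in the same fit. These 9 contrasts share libraries, so each is read by itself. In NZO/HlLtJ, 19 members were higher and 2 lower, where the background was 14.8% higher and 12.9% lower. In NOD/ShiLtJ, 13 were higher (background 9.2%) and only Cdk6 was lower (5.72%). CAST/EiJ had 13 members lower (17.8%) and 3 higher (20.1%), and WSB/EiJ had 10 lower (9.25%) with only Cdc45 higher (15.5%). The other strains had few calls among the 41 members. PWK/PhJ had 4 higher (19.4%) and 4 lower (14.8%), 129S1/SvImJ had 2 higher (10.5%) and 5 lower (7.86%), and A/J had 4 higher (15.9%) and only Ccnd3 lower (11.6%). C57BL/6J had 3 higher (11.6%) and 0 lower (6.5%), and DBA/2J had 3 higher (9.5%) and 0 lower (3.78%) in edgeR, with 2 members lower at an unadjusted p under 0.05 in each of these strains. With the mean log2 CPM of the Kupffer cell and endothelial marker lists as covariates, an alternative chosen after seeing the data, the members higher numbered 10 in NZO/HlLtJ and 21 in NOD/ShiLtJ, and those lower in CAST/EiJ numbered 8. The endothelial marker sum was lowest in NZO/HlLtJ, at 82.2 ± 25.8 CPM (SD, n = 3). The median log2 fold change over the members was 0.68 in NZO/HlLtJ, 0.63 in NOD/ShiLtJ, -0.39 in CAST/EiJ and -0.41 in WSB/EiJ, where the median over all genes lay between -0.01 and 0.02.

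Many of these calls rested on single libraries. Of the 88 contrast calls, 26 held when each of the 27 libraries was left out in turn. Without NOD/ShiLtJ replicate 1, the members higher in that strain fell from 13 to 6. Without NZO/HlLtJ replicate 1 or replicate 2, those higher in NZO/HlLtJ fell from 19 to 10. Without WSB/EiJ replicate 3 or replicate 4, those lower in WSB/EiJ fell from 10 to 3, and without CAST/EiJ replicate 1 or replicate 4, those lower in CAST/EiJ fell from 13 to 7. The calls that held for all 27 omissions included E2f8 in 6 strains, Cdkn1a in 4 strains and Mcm2, Mcm4, Mcm6 and Mcm7 in NZO/HlLtJ.

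**Figure D2:**
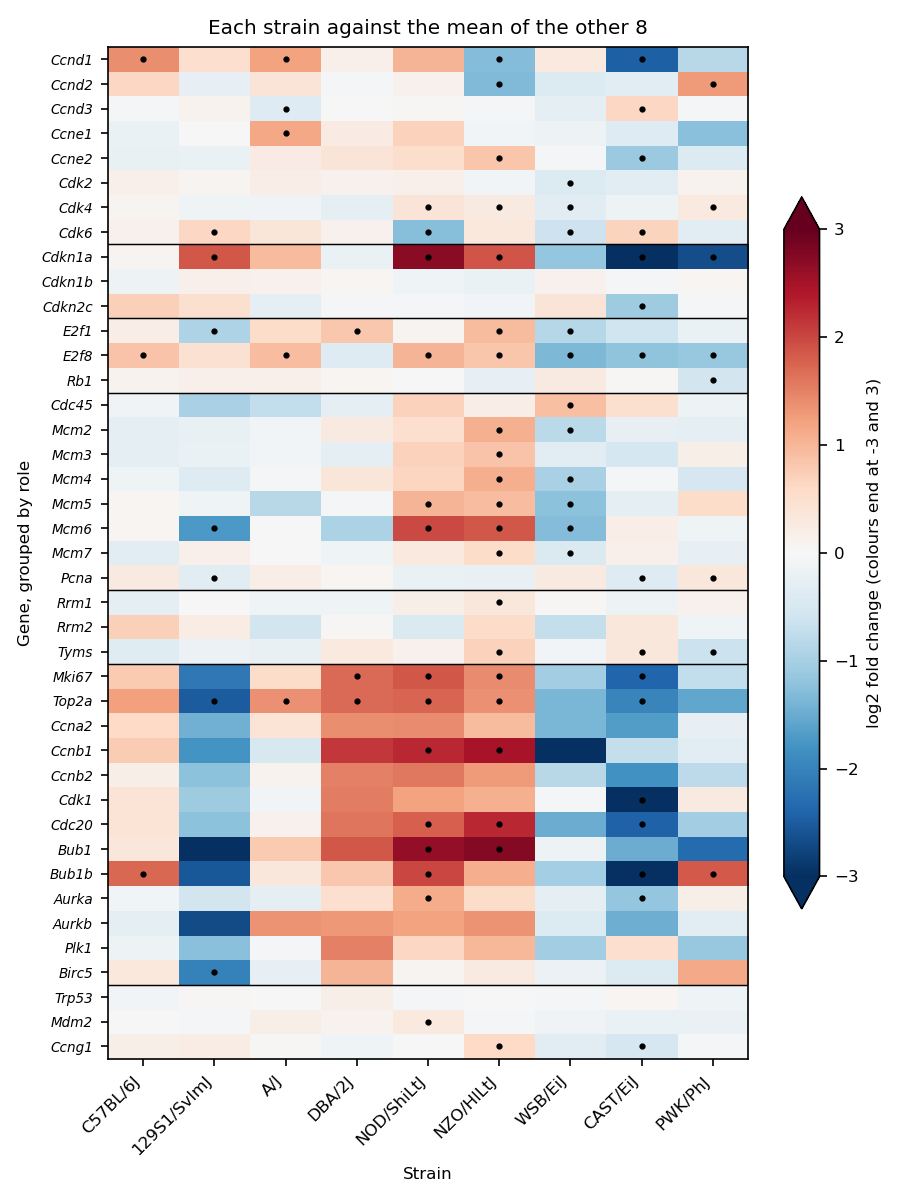
Log2 fold change of each of the 41 members tested (rows, grouped by role) in each strain against the mean of the other 8 (columns), with dots at an adjusted p under 0.05. NZO/HlLtJ and NOD/ShiLtJ show mostly higher values (19 and 13 members called higher), and CAST/EiJ and WSB/EiJ mostly lower ones (13 and 10 called lower).

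Among the G1 cyclins and their kinases, 7 of 8 genes were called (background 74.2%), and Ccnd1 showed the widest range. Cyclin D1 is the cyclin that hepatocytes induce when they leave rest. Its gene lies at chr7:144929931-144939925 on the minus strand (GRCm38). Ccnd1 had 57.2, 78.0 and 65.3 CPM in C57BL/6J and 53.4, 83.9 and 41.7 CPM in A/J. In CAST/EiJ it had 8.75, 5.56 and 4.54 CPM, and in NZO/HlLtJ 16.2, 19.8 and 2.44 CPM. Every C57BL/6J and A/J library was above every CAST/EiJ and NZO/HlLtJ library. WSB/EiJ spread from 9.12 to 54.1 CPM, and PWK/PhJ, at 17.0 ± 2.86 CPM (SD, n = 3), overlapped the NZO/HlLtJ libraries. The strain means spanned 10.6-fold, from 66.8 ± 10.5 CPM in C57BL/6J to 6.28 ± 2.20 CPM in CAST/EiJ (SD, n = 3 each; edgeR adjusted p 0.000186). Against the other 8 strains, the log2 fold change was -2.44 ± 0.49 (SE) in CAST/EiJ, with an edgeR adjusted p of 0.000341, and this call held without any library. The higher levels in C57BL/6J (1.39, adjusted p 0.0064) and A/J (1.20, adjusted p 0.0136) lost their calls without replicate 2 of the strain (adjusted p 0.0587 and 0.159). The lower level in NZO/HlLtJ (-1.29, adjusted p 0.0323) was -0.80 without replicate 3, with an adjusted p of 0.163. The estimated counts of Ccnd1 were not whole in any library and the gene overlaps an exon of LTO1 on the opposite strand.

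The other D-type cyclins did not share the strain order of Ccnd1. Ccnd2 was highest in PWK/PhJ, with 8.99, 2.47 and 5.51 CPM, and lowest in NZO/HlLtJ, with 0.765, 1.22 and 1.44 CPM. Its strain effect had an adjusted p of 0.00452, and without PWK/PhJ replicate 1 the log2 fold change in PWK/PhJ moved from 1.28 to 0.78 (adjusted p 0.0973). The endothelial and Kupffer cell markers were also highest in PWK/PhJ replicate 1. With the mean log2 CPM of those 2 marker lists as covariates, the strain effect on Ccnd2 had an adjusted p of 0.277 and its log2 fold change in PWK/PhJ turned to -0.15. Ccnd3 was highest in CAST/EiJ, at 27.1 CPM on average, and lowest in A/J, at 14.5 CPM, and its higher level in CAST/EiJ (adjusted p 0.000177) held without any library. Its counts were not whole in all 27 libraries.

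Cdk6, the partner kinase of D-type cyclins beside Cdk4, had its lowest strain mean in NOD/ShiLtJ. It had 1.66, 1.07 and 0.906 CPM there, against 2.36, 1.65 and 1.47 CPM in WSB/EiJ, 3.88, 3.95 and 4.01 CPM in 129S1/SvImJ and 4.52, 4.29 and 3.20 CPM in CAST/EiJ. The NOD/ShiLtJ libraries overlapped those of WSB/EiJ and lay below all 6 of 129S1/SvImJ and CAST/EiJ. The strain effect had an adjusted p of 0.000114, and the log2 fold change in NOD/ShiLtJ was -1.28 ± 0.22 (SE; edgeR adjusted p 0.000195), a call that held without any library. Cdk4 went the other way in NOD/ShiLtJ, where its mean of 22.8 CPM was the highest of the 9 strains, with 14.6 CPM in WSB/EiJ as the lowest. The E-type cyclins, which act with Cdk2 at the entry to S phase, were low. Ccne2 averaged 1.06 ± 0.561 CPM in its highest strain, NZO/HlLtJ, and 0.320 ± 0.0360 CPM in its lowest, CAST/EiJ (SD, n = 3 each; adjusted p 0.0392), and 14 of 35 alternatives took its adjusted p to 0.05 or above. Ccne1 was not called for the strain effect (adjusted p 0.153) and was called higher in A/J (1.16, adjusted p 0.044), a call lost in 18 of the 27 omissions. The strain means of Cdk2 lay within 1.45-fold of each other (adjusted p 0.0488).

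Of the 3 CDK inhibitors, Cdkn1a, which encodes p21 and is a classical target of p53, differed most among strains of all members whose lowest strain mean rested on over 3 counts in each library. Its gene lies at chr17:29090976-29100727 on the plus strand (GRCm38) and overlaps an exon of another gene model on the opposite strand. It had 14.0, 28.7 and 24.0 CPM in NOD/ShiLtJ and 11.0, 13.6 and 15.9 CPM in NZO/HlLtJ. In PWK/PhJ it had 0.879, 0.756 and 0.830 CPM, and in CAST/EiJ 0.857, 0.181 and 0.361 CPM, with 6 to 29 counts per library. Every library of NOD/ShiLtJ and NZO/HlLtJ was above all 6 libraries of these wild-derived strains. 129S1/SvImJ had 8.78, 7.73 and 23.6 CPM, C57BL/6J spread from 1.36 to 8.10 CPM, A/J from 1.97 to 12.6 CPM, and WSB/EiJ from 0.506 to 3.63 CPM. Replicates of these strains thus differed several-fold among themselves, while DBA/2J (3.73 ± 0.828 CPM) and PWK/PhJ (0.821 ± 0.0617 CPM) were tight (SD, n = 3 each). Strain means spanned 47.7-fold, from 22.2 ± 7.52 CPM in NOD/ShiLtJ to 0.466 ± 0.350 CPM in CAST/EiJ (SD, n = 3 each; edgeR adjusted p 1.08e-06). Log2 fold changes against the other strains were 2.70 ± 0.35 in NOD/ShiLtJ, 1.89 ± 0.37 in NZO/HlLtJ, -2.65 ± 0.60 in PWK/PhJ and -3.51 ± 0.66 in CAST/EiJ (SE). Their edgeR adjusted p were 3.78e-06, 0.000572, 0.00123 and 0.000152, and all 4 calls held without any library. The call in 129S1/SvImJ (log2 fold change 1.87, adjusted p 0.000912) was lost without its replicate 3 (1.18, adjusted p 0.0783). Cdkn1b, which encodes p27, ranged only from 10.9 to 13.7 CPM over strain means (adjusted p 0.0346), and Cdkn2c was not called for the strain effect (adjusted p 0.0522). In the contrasts Cdkn2c was lower in CAST/EiJ (log2 fold change -1.06, adjusted p 0.0129), a call lost in 2 of the 27 omissions. The p21 gene therefore varied across strains on a scale that the p27 gene, in the same libraries, did not.

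E2F1 activates the genes of S phase and E2F8 represses them, and the E2F8 gene had the largest F statistic of all members. E2f8 (chr7:48866429-48881596, minus strand, GRCm38) had 7.76, 7.80 and 7.84 CPM in NOD/ShiLtJ, 6.93, 6.94 and 7.22 CPM in NZO/HlLtJ and 7.31, 8.61 and 6.44 CPM in A/J. It had 1.80, 2.34 and 2.12 CPM in PWK/PhJ, 1.74, 2.42 and 1.75 CPM in CAST/EiJ and 2.95, 1.69 and 0.783 CPM in WSB/EiJ. The 9 libraries of these wild-derived strains held the 9 lowest values of the 27, with DBA/2J next at 3.28 ± 0.0455 CPM (SD, n = 3). Whether reads were aligned to each strain's own genome is not given, and what alignment contributes to values in these strains, here and for Cdkn1a, was not tested. Strain means spanned 4.31-fold (edgeR adjusted p 3.75e-07). The log2 fold change was -1.35 ± 0.25 in WSB/EiJ, -1.21 ± 0.25 in CAST/EiJ and -1.13 ± 0.24 in PWK/PhJ (SE; edgeR adjusted p 0.000288, 0.000383 and 0.000804). Those 3 calls, and the higher levels in NOD/ShiLtJ (1.01), NZO/HlLtJ (0.84) and A/J (0.93), held without any library. In C57BL/6J the higher level (0.85, adjusted p 0.00372) was lost without replicate 1 (0.61, adjusted p 0.0723). The counts of E2f8 were not whole in 26 libraries and the gene overlaps an exon of Gm2788 on the opposite strand. E2f1 had its highest strain mean in NZO/HlLtJ, with 2.55, 3.70 and 2.31 CPM, and its lowest in 129S1/SvImJ, with 0.682, 1.09 and 0.913 CPM. Its strain effect had an adjusted p of 0.000261, and the higher level in NZO/HlLtJ was lost without replicate 2 (log2 fold change 0.72, adjusted p 0.0694). E2f1 was also lower in WSB/EiJ (-0.86, adjusted p 0.021), a call lost without replicate 4 (-0.72, adjusted p 0.128). The activator and the repressor were thus both called lower in WSB/EiJ and both higher in NZO/HlLtJ. In 129S1/SvImJ E2f1 was called lower, a call lost without replicate 1 (adjusted p 0.131), and E2f8 was not called. In DBA/2J E2f1 was called higher (0.80, adjusted p 0.0178; 0.53 and 0.299 without replicate 3), while E2f8 had a log2 fold change of -0.39 (adjusted p 0.314). Rb1, the retinoblastoma gene, had an adjusted p of 0.0579 for the strain effect, and its level in PWK/PhJ (4.04 ± 0.103 CPM, SD, n = 3) lay below every other library. The lower level of Rb1 in PWK/PhJ (adjusted p 0.00727) held without any library, but its counts were not whole in all 27.

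**Figure D3:**
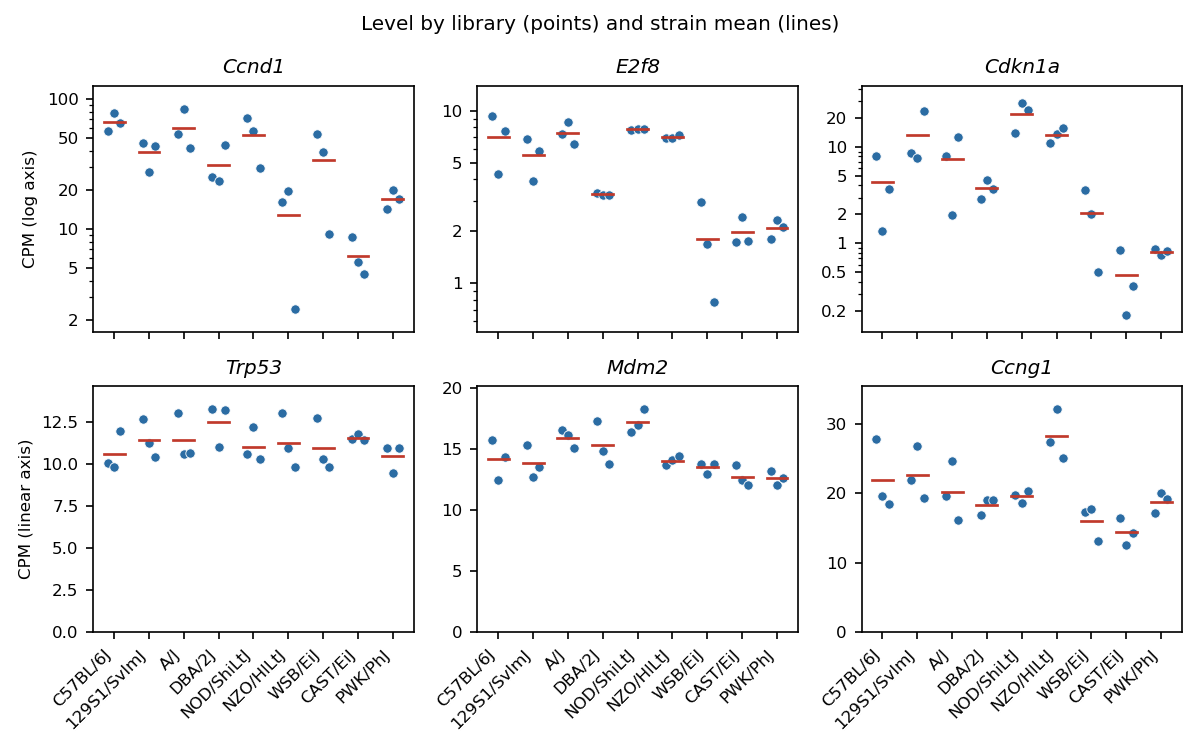
CPM in each library (points) and strain means (lines) for 6 genes, with log axes for Ccnd1, E2f8 and Cdkn1a in the top row and linear axes from 0 for Trp53, Mdm2 and Ccng1 in the bottom row. Cdkn1a spans 0.181 to 28.7 CPM over the 27 libraries and E2f8 is lowest in the 9 libraries of WSB/EiJ, CAST/EiJ and PWK/PhJ, while Trp53 stays between 9.48 and 13.3 CPM.

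All 8 replication genes that were tested were called among strains (background 74.2%), and Mcm2 to Mcm7 were highest in NZO/HlLtJ and NOD/ShiLtJ. These 6 genes encode the MCM complex, the ring-shaped helicase that is loaded at replication origins in G1. Their summed level was 42.4, 41.8 and 32.1 CPM in NZO/HlLtJ and 45.8, 34.2 and 23.9 CPM in NOD/ShiLtJ. In WSB/EiJ it was 16.4, 14.6 and 11.7 CPM, and the other 6 strains had means from 18.9 to 21.3 CPM. Each NZO/HlLtJ library was above all 21 libraries outside NZO/HlLtJ and NOD/ShiLtJ, while the lowest NOD/ShiLtJ library lay below DBA/2J replicate 3, at 25.1 CPM. In all 3 NZO/HlLtJ libraries each of the 6 genes was above its median over the 27 libraries. In WSB/EiJ that held for 0, 1 and 0 of the 6 genes.

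**Figure D4:**
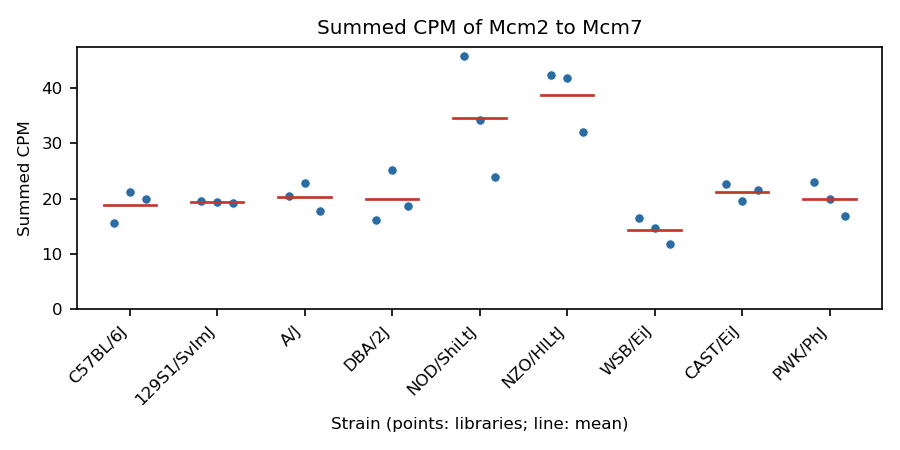
Summed CPM of Mcm2 to Mcm7 in each library (points) with strain means (lines), on a linear axis from 0. The means of NZO/HlLtJ (38.8 CPM) and NOD/ShiLtJ (34.6 CPM) are the highest and that of WSB/EiJ (14.3 CPM) is the lowest.

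Mcm6 had the widest range of the 6. It had 13.3, 8.52 and 5.54 CPM in NOD/ShiLtJ and 8.49, 11.1 and 6.26 CPM in NZO/HlLtJ, against 0.837, 0.916 and 1.04 CPM in 129S1/SvImJ and 2.23, 0.807 and 0.598 CPM in WSB/EiJ. The 6 libraries of NOD/ShiLtJ and NZO/HlLtJ held the 6 highest values. Strain means spanned 9.80-fold (edgeR adjusted p 1.95e-05), with log2 fold changes of 1.97 ± 0.32 in NOD/ShiLtJ and 1.87 ± 0.32 in NZO/HlLtJ (SE; edgeR adjusted p 7e-05 and 0.000102). Both calls held without any library. The lower levels of Mcm6 in 129S1/SvImJ (-1.73, adjusted p 0.00975) and WSB/EiJ (-1.30, adjusted p 0.0375) did not, reaching an adjusted p of 0.0635 without 129S1/SvImJ replicate 1 and 0.199 without WSB/EiJ replicate 4.

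Mcm2 had 3.82, 4.15 and 3.37 CPM in NZO/HlLtJ, above every other library. However, DBA/2J replicate 3, at 3.364 CPM, lay less than 1 count (0.0502 CPM) below the lowest of these, at 3.368 CPM. The log2 fold change of Mcm2 in NZO/HlLtJ was 1.07 ± 0.19 (SE; edgeR adjusted p 0.000169). Mcm4 had 5.71, 5.34 and 3.85 CPM in NZO/HlLtJ, with a log2 fold change of 1.09 ± 0.22 (SE; adjusted p 0.000565), and NOD/ShiLtJ replicate 1 held its highest value, 5.94 CPM. The higher levels of Mcm3 (0.85, adjusted p 0.00786) and Mcm5 (0.93, adjusted p 0.0262) in NZO/HlLtJ were lost without replicate 1 of that strain (adjusted p 0.0811 and 0.209). The higher level of Mcm5 in NOD/ShiLtJ (1.01, adjusted p 0.027) was lost without NOD/ShiLtJ replicate 1 (0.57, adjusted p 0.39). In WSB/EiJ, Mcm2, Mcm4, Mcm5, Mcm6 and Mcm7 were lower, and each of these 5 calls was lost without replicate 3 or replicate 4 of the strain, to adjusted p of at most 0.199. Cdc45, the helicase partner of the MCM ring, did not follow the MCM genes. It was highest in WSB/EiJ, with 1.26, 0.928 and 1.66 CPM, and lowest in 129S1/SvImJ, with 0.186, 0.744 and 0.261 CPM (adjusted p 0.0362, lost under 10 of 35 alternatives). Pcna, the clamp that holds the polymerase on DNA, differed 1.56-fold between its highest strain mean in PWK/PhJ, 14.9 CPM, and its lowest in CAST/EiJ, 9.53 CPM (adjusted p 0.000533).

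RefSeq promoter sequences (GRCm38.p6, 250 bases before to 50 after the annotated start) were matched for 35 of the 42 genes. They were searched on both strands for the E2F motifs TTTCGCGC, TTTGGCGC and TTTCCCGC, which can overlap one another where they face each other. Of the 8 replication genes with a promoter, 5 held at least 1 of these motifs (62.5%: Cdc6, Mcm3, Mcm5, Mcm6 and Mcm7), against 2.12% of 27025 genes. Of the other members with a promoter, only Cdk2 and Cdk1 held one, so that Mcm2, which was highest in NZO/HlLtJ, held none. Ccnd1, Ccnd2, Ccne2, Rb1, Mcm4, Ccna2 and Aurkb had no matched promoter and were not searched. The 200 bases before the start of Mcm6 and Mcm5 are shown because these genes were highest in NOD/ShiLtJ and NZO/HlLtJ and carry pairs of facing E2F motifs, written in capitals. That of Mcm6 lies at chr1:128359706-128359905 (minus strand) and that of Mcm5 at chr8:75109309-75109508 (plus strand), both written 5′ to 3′.
Mcm6: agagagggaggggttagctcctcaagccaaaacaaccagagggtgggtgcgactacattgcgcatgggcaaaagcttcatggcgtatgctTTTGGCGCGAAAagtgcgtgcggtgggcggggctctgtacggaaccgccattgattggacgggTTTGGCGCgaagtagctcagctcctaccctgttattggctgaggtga
Mcm5: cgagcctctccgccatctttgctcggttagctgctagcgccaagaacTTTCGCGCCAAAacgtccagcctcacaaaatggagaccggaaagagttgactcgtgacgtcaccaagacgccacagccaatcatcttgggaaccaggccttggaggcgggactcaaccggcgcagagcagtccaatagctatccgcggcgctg
In Mcm6 the overlapping pair begins at base -110 and a further motif at base -47, counted from the start, and in Mcm5 the pair begins at base -153. The reference letters are those of one strain, so they cannot show sequence differences among strains, and a match is not evidence of binding.

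Of the 3 genes of nucleotide supply, Tyms, which encodes thymidylate synthase, was called. It had 11.3, 10.7 and 11.3 CPM in NZO/HlLtJ and 4.67, 4.67 and 5.48 CPM in PWK/PhJ. The NZO/HlLtJ libraries were above every other library, but DBA/2J replicate 3, at 10.65 CPM, lay within a few counts of the lowest of them. Log2 fold changes were 0.68 ± 0.12 in NZO/HlLtJ and -0.64 ± 0.14 in PWK/PhJ (SE; edgeR adjusted p 0.000194 and 0.000893), and both calls held without any library. The counts of Tyms were not whole in all 27 libraries. The subunits of ribonucleotide reductase, Rrm1 and Rrm2, were not called for the strain effect (adjusted p 0.117 and 0.0742), with strain means from 5.97 to 8.80 CPM and from 0.889 to 2.15 CPM. Rrm1 was called higher in NZO/HlLtJ (0.35, adjusted p 0.0441), a call lost in 11 of the 27 omissions.

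Of the 13 genes of G2 and mitosis, 10 were called for the strain effect (background 74.2%), and single libraries differed widely within some strains. Their summed level had a median of 7.33 CPM over the 27 libraries, from 2.02 CPM in 129S1/SvImJ replicate 1 to 36.1 CPM in DBA/2J replicate 3. The other DBA/2J libraries were at or below 8.11 CPM. NOD/ShiLtJ replicate 1 had 32.8 CPM, while the lowest NOD/ShiLtJ library had 8.75 CPM, and NZO/HlLtJ replicates 1 and 2 had 21.2 and 22.3 CPM, while replicate 3 had 4.04 CPM. These 4 libraries were the highest of the 27, and the standard deviations of their strains were large beside the means: 17.2 ± 16.4 CPM in DBA/2J, 17.9 ± 13.0 CPM in NOD/ShiLtJ and 15.8 ± 10.2 CPM in NZO/HlLtJ (SD, n = 3 each). CAST/EiJ, at 2.83 ± 0.202 CPM, and 129S1/SvImJ, at 2.89 ± 0.937 CPM, had the lowest means (SD, n = 3 each), with no library above 3.88 CPM.

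**Figure D5:**
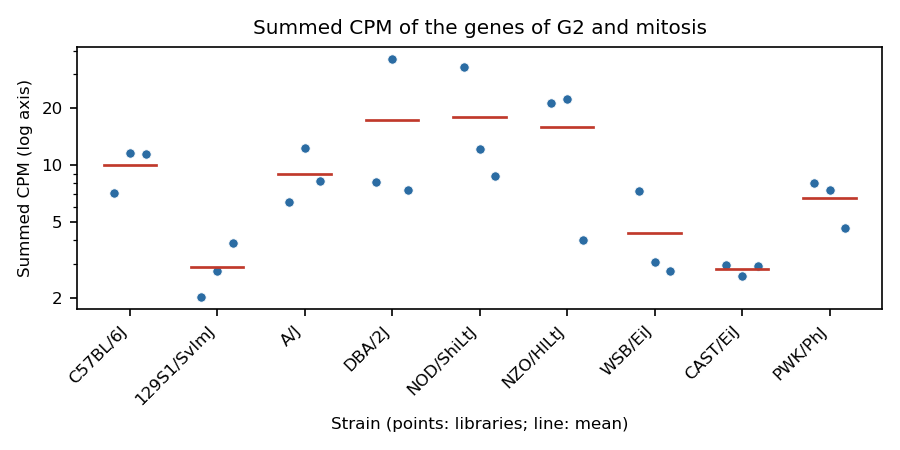
Summed CPM of the 13 genes of G2 and mitosis in each library (points, log axis) with strain means (lines). DBA/2J replicate 3 (36.1 CPM) and NOD/ShiLtJ replicate 1 (32.8 CPM) lie far above the other libraries of their strains, and NZO/HlLtJ replicate 3 (4.04 CPM) lies below the others of its strain.

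The same libraries led gene by gene. DBA/2J replicate 3 had the highest value of the 27 libraries for 7 of the 13 genes, NOD/ShiLtJ replicate 1 for 5 and NZO/HlLtJ replicate 1 for 1. Over all genes tested these libraries were highest for 3.2%, 1.98% and 2.64%. DBA/2J replicate 3 was above the mean of the other DBA/2J libraries for 13 of 13 genes, with a median ratio of 6.14, and NOD/ShiLtJ replicate 1 above the others of its strain for 13 of 13, with a median ratio of 3.55. Over all genes the median ratios were 0.977 and 0.988. NZO/HlLtJ replicate 3 was below the mean of its strain's other libraries for 13 of 13, with a median ratio of 0.138. The replication genes followed with smaller ratios, with medians of 1.85 in DBA/2J replicate 3 and 1.45 in NOD/ShiLtJ replicate 1, and the p53 pathway did not, at 0.956 and 0.940. In NZO/HlLtJ replicate 3 the medians were 0.697 for the replication genes and 1.01 over all genes. The p53 pathway was at 0.842 there, with 1 of 3 genes above the strain's other libraries.

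Markers of other cells were set beside these libraries. In DBA/2J replicates 2, 3 and 4 the Kupffer cell markers summed to 125.1, 186.1 and 33.4 CPM, the endothelial markers to 206.5, 180.9 and 78.0 CPM, and the lymphocyte markers to 5.15, 5.57 and 0.893 CPM. In NOD/ShiLtJ replicates 1, 2 and 3 the Kupffer cell sums were 80.0, 74.5 and 69.5 CPM, the endothelial sums 132.4, 242.6 and 138.7 CPM, and the lymphocyte sums 1.59, 2.01 and 2.44 CPM. NZO/HlLtJ replicates 1, 2 and 3 had Kupffer cell sums of 73.0, 90.2 and 34.1 CPM and endothelial sums of 62.2, 73.0 and 111.3 CPM, with lymphocyte sums of 2.06, 2.76 and 0.962 CPM. The neutrophil markers summed to 0.887, 1.21 and 0.478 CPM in DBA/2J, 0.552, 0.589 and 0.209 CPM in NOD/ShiLtJ and 0.663, 0.532 and 0.193 CPM in NZO/HlLtJ. The Kupffer cell, lymphocyte and neutrophil sums were therefore each highest of their strain in DBA/2J replicate 3 and lowest of their strain in NZO/HlLtJ replicate 3, as the mitosis sums were. The Kupffer cell sums differed least in NOD/ShiLtJ, with replicate 1 highest, while the endothelial sums did not have this order. In NOD/ShiLtJ replicate 1 the lymphocyte sum was the lowest of its strain and the neutrophil sum was not the highest. Stellate cell markers summed to 86.61, 71.15 and 42.85 CPM in DBA/2J and 42.55, 72.72 and 56.41 CPM in NOD/ShiLtJ, in replicate order. In NZO/HlLtJ they summed to 21.13, 23.23 and 37.53 CPM, highest in replicate 3. The bile duct markers were highest of all 27 libraries in NOD/ShiLtJ replicate 1, at 9.71 CPM, with 7.87 and 8.05 CPM in the other NOD/ShiLtJ libraries, and lay between 2.03 and 4.46 CPM in DBA/2J and NZO/HlLtJ. In replicate order, the red cell markers summed to 33.5, 42.8 and 45.9 CPM in DBA/2J, 55.5, 32.8 and 30.8 CPM in NOD/ShiLtJ and 37.9, 64.9 and 45.6 CPM in NZO/HlLtJ. The immediate early genes summed to 74.4, 84.6 and 110.5 CPM in DBA/2J, 126.2, 88.3 and 70.5 CPM in NOD/ShiLtJ and 250.5, 131.3 and 130.8 CPM in NZO/HlLtJ. Both sums were thus highest of the strain in NOD/ShiLtJ replicate 1 but not in DBA/2J replicate 3, and the hepatocyte markers were highest of the strain in DBA/2J replicate 3, at 241700 CPM against 175100 and 144900 CPM. The part of these markers in the single-library differences was not tested.

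Mki67, the proliferation marker that encodes Ki-67 (chr7:135689784-135716361, minus strand, GRCm38), had 2.70, 6.73 and 0.956 CPM in DBA/2J, 6.72, 2.60 and 1.92 CPM in NOD/ShiLtJ and 3.49, 4.43 and 0.545 CPM in NZO/HlLtJ. It had 0.248, 0.401 and 0.293 CPM in 129S1/SvImJ and 0.414, 0.181 and 0.206 CPM in CAST/EiJ, or 4 to 14 counts per library. All 6 of these libraries lay below every library of DBA/2J, NOD/ShiLtJ and NZO/HlLtJ. Strain means reached from 0.267 ± 0.128 CPM (CAST/EiJ) up to 3.74 ± 2.60 CPM (NOD/ShiLtJ; SD, n = 3 each), with an edgeR adjusted p of 0.00212. Contrast calls were lost with single libraries. Without NOD/ShiLtJ replicate 1 the log2 fold change in NOD/ShiLtJ went from 1.86 to 1.13 (adjusted p 0.321), and without DBA/2J replicate 3 that in DBA/2J went from 1.71 to 0.79 (adjusted p 0.617). In NZO/HlLtJ (1.41, adjusted p 0.0496) the call was lost in 18 of the 27 omissions, and in CAST/EiJ (-2.37, adjusted p 0.0238) it was lost without any of that strain's own libraries, to at most 0.109.

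Top2a, the topoisomerase that untangles chromosomes, followed the same order at one end, with 4.54, 1.59 and 1.15 CPM in NOD/ShiLtJ and 1.86, 4.37 and 0.988 CPM in DBA/2J. It had 0.0930, 0.115 and 0.326 CPM in 129S1/SvImJ and 0.236, 0.242 and 0.258 CPM in CAST/EiJ, and the edgeR adjusted p of its strain effect was 0.000385. Without NOD/ShiLtJ replicate 1 or DBA/2J replicate 3 the log2 fold changes in those strains were 0.92 and 0.95 (adjusted p 0.399 and 0.459), from 1.74 and 1.70. Cdc20, which activates the anaphase-promoting complex, had 3.47, 4.18 and 0.577 CPM in NZO/HlLtJ and 0.0591, 0.242 and 0.155 CPM in CAST/EiJ (strain effect, edgeR adjusted p 0.00125). Its log2 fold change in NZO/HlLtJ was 2.25 ± 0.50 (SE; adjusted p 0.00183), and 1.82 with an adjusted p of 0.0508 without replicate 2.

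The kinase gene Cdk1, whose product drives entry into mitosis, was separate at its lower end. It had 0.0296, 0.121 and 0.0516 CPM in CAST/EiJ, which were 1, 4 and 1 counts, below every other library. Elsewhere it ran from 0.186 CPM in 129S1/SvImJ replicate 1 to 3.62 CPM in DBA/2J replicate 3. The log2 fold change in CAST/EiJ was -3.26 ± 0.90 (SE; edgeR adjusted p 0.00597) and stayed called without any library, at most at 0.0487 without CAST/EiJ replicate 1, but with so few counts its size is imprecise. The strain effect on Cdk1 (adjusted p 0.0184) was lost without CAST/EiJ replicate 1 (adjusted p 0.0618) and with the replicate number as a block (adjusted p 0.0972). The call of Cdk1 in CAST/EiJ was lost in 2 of 35 alternatives. Aurka, the best detected gene of this group, had 3.08, 2.81 and 2.16 CPM in NOD/ShiLtJ and 0.828, 0.574 and 0.567 CPM in CAST/EiJ. Its log2 fold changes were 1.11 ± 0.22 in NOD/ShiLtJ and -1.16 ± 0.28 in CAST/EiJ (SE; edgeR adjusted p 0.000688 and 0.00179), and both calls held without any library. Aurka thus differed between these strains at a depth of 11 counts or more per library, where the other mitosis genes dropped to 3 counts or fewer in at least 1 library.

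Cyclin B1 and cyclin A2, the partners of Cdk1, were sparse. Ccnb1 had 1.56, 1.95 and 0.0642 CPM in NZO/HlLtJ and counts of 1, 0 and 0 in WSB/EiJ, and its strain effect had an adjusted p of 0.012. Without NOD/ShiLtJ replicate 1 its log2 fold change in NOD/ShiLtJ went from 2.26 (adjusted p 0.0392) to 0.67 (adjusted p 0.752). Ccna2 had a strain effect with an adjusted p of 0.0486, which 22 of 35 alternatives took to 0.05 or above. Bub1 was counted in only 16 of the 27 libraries, and PWK/PhJ had 0 counts in replicate 1 and 1 count over its other libraries. Bub1 had 0 counts in all 3 libraries of 129S1/SvImJ, which allows up to 0.0307 CPM (3 counts over that group). In NZO/HlLtJ it had 0.714, 0.329 and 0.0321 CPM, with the last library, at 1 count, near that limit. The limit, like every count here, covers counting error only, since reads copied by PCR are not independent molecules. Aurkb, Plk1 and Birc5 were not called for the strain effect (adjusted p 0.150, 0.372 and 0.0813), and Birc5 was called lower in 129S1/SvImJ (-2.02, adjusted p 0.0354), a call lost in 3 of the 27 omissions.

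The promoters of these genes were also searched for the sequence elements CHR and CCAAT. The CHR element, searched as TTTGAA or TTCGAA on both strands, was present in 9 of the 11 mitosis genes with a RefSeq promoter (81.8%), against 21.7% of 27025 genes. CCAAT was present in 10 of 11 (90.9%), against 41.1%, and both together in 9 of 11, against 9.65%. No gene of the p53 pathway, the CDK inhibitors or nucleotide supply held a CHR element or an E2F motif in this window. The 200 bases before the start are shown for Cdk1, Mki67 and Cdc20 as examples among the 9 genes that carry both elements, which also include Top2a and Aurka, at chr10:69352913-69353112, chr7:135716380-135716579 and chr4:118437344-118437543, each on the minus strand and written 5′ to 3′. Capitals mark CHR elements and CCAAT, which reads ATTGG when it lies on the opposite strand, and in Cdk1 also an E2F motif.
Cdk1: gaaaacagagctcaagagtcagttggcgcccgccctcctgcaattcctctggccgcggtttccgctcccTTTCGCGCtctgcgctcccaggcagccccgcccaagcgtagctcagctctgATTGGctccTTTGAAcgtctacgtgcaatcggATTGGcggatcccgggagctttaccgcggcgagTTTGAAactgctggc
Mki67: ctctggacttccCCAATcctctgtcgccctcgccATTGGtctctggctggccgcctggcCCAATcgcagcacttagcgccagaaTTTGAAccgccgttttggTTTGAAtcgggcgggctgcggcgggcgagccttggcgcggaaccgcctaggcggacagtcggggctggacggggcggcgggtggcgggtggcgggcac
Cdc20: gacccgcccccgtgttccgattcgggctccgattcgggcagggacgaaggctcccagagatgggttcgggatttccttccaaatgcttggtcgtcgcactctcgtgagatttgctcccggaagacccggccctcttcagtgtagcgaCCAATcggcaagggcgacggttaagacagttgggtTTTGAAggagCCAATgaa
GENCODE M21 starts Cdk1 and Cdc20 further upstream than RefSeq, so that the last 26 and 9 bases of their stretches lie inside the annotated gene there. The CHR elements begin at bases -71 and -15 in Cdk1, -116 and -98 in Mki67 and -18 in Cdc20.

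Of the role groups, the 3 genes of the p53 pathway varied least, with a median ratio of highest to lowest strain mean of 1.37. Cdkn1a, also a p53 target, was grouped with the CDK inhibitors. The 19 other p53 targets tested, described below, had a median ratio of 2.71, against 2.27 over all genes tested. Trp53, the p53 gene itself, had a lowest value of 9.48 CPM, a median of 11.0 CPM and a highest of 13.3 CPM over the 27 libraries. Its strain means differed 1.20-fold and were not called (edgeR adjusted p 0.781, at least 0.605 under every alternative). Mdm2, which encodes the ubiquitin ligase that degrades p53, had 16.4, 17.0 and 18.3 CPM in NOD/ShiLtJ and 13.2, 12.0 and 12.6 CPM in PWK/PhJ, with strain means that differed by at most 1.37-fold (adjusted p 0.0135). Its higher level in NOD/ShiLtJ (log2 fold change 0.30, adjusted p 0.0136) was lost without replicate 3 (0.26, adjusted p 0.126). The strain effect on Mdm2 was lost without the filter on low counts (edgeR adjusted p 0.186) and with the replicate number as a block (0.0517). Ccng1, a p53 target that encodes cyclin G1, had 27.4, 32.2 and 25.1 CPM in NZO/HlLtJ and 16.4, 12.5 and 14.2 CPM in CAST/EiJ. The strain effect on Ccng1 had an edgeR adjusted p of 0.00131, with log2 fold changes of 0.59 ± 0.12 in NZO/HlLtJ and -0.51 ± 0.14 in CAST/EiJ (SE; edgeR adjusted p 0.000959 and 0.0046). The higher level in NZO/HlLtJ held without any library and the lower one in CAST/EiJ was lost without its replicate 4 (-0.42, adjusted p 0.0589). Trp53 thus stayed within 9.48 to 13.3 CPM in strains whose Cdkn1a levels differed 47.7-fold, while Ccng1 differed 1.96-fold.

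Genes of the same processes outside the 42 were read in the same fit, from 4 lists. Of 35 other replication genes, 33 were tested and 28 called for the strain effect (background 74.2%). In NZO/HlLtJ 19 of the 33 were higher (14.8% of all genes) and 0 lower (12.9%). In NOD/ShiLtJ 5 were higher (9.2%) and 0 lower (5.72%), and in WSB/EiJ 1 was higher (15.5%) and 6 lower (9.25%). The median log2 fold change of the 33 genes was 0.57 in NZO/HlLtJ, 0.22 in NOD/ShiLtJ and -0.38 in WSB/EiJ. The summed level of all 35 was 191.5 ± 8.31 CPM in NZO/HlLtJ, where the lowest library had 182.3 CPM, and the next strain mean was 157.3 ± 19.7 CPM in NOD/ShiLtJ (SD, n = 3 each). Mcm10, an initiation factor at the replication fork, had 17.8 ± 1.02 CPM in NZO/HlLtJ and 4.46 ± 0.981 CPM in PWK/PhJ (SD, n = 3 each; edgeR adjusted p 9.97e-07). Chaf1b, a subunit of the chromatin assembly factor CAF-1, was highest in CAST/EiJ at 4.03 ± 1.05 CPM and lowest in 129S1/SvImJ at 0.468 CPM (adjusted p 1.51e-06). Prim2, a primase subunit, was highest in PWK/PhJ at 3.06 CPM and lowest in C57BL/6J at 0.961 CPM (adjusted p 4.52e-06). These 3 genes of the largest F in the list had 3 different highest strains.

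Of 42 other genes of G2 and mitosis, 39 were tested and 24 called, a smaller share than the 74.2% of all genes. There were 10 higher in NZO/HlLtJ (14.8% of all genes), 8 in NOD/ShiLtJ (9.2%) and 5 in DBA/2J (9.5%), and 11 lower in CAST/EiJ (17.8%). The single libraries stood out here as well, since NOD/ShiLtJ replicate 1 had the highest value for 14 of the 39 genes and DBA/2J replicate 3 for 10. The summed level of all 42 was 92.3 CPM in DBA/2J replicate 3, with 44.8 CPM in the lowest DBA/2J library, and 86.4 CPM in NOD/ShiLtJ replicate 1, with 45.3 CPM in the lowest NOD/ShiLtJ library. The genes of largest F did not share this order. Pttg1, which encodes securin, had 8.90 ± 1.98 CPM in C57BL/6J and 0.239 ± 0.0824 CPM in CAST/EiJ (SD, n = 3 each; edgeR adjusted p 2.06e-10). Mybl2, which encodes B-Myb, an activator of mitotic genes, had 5.20 ± 1.18 CPM in PWK/PhJ and 0.0602 CPM in 129S1/SvImJ (adjusted p 1.11e-08). Ncapg, a condensin subunit, had 5.05 ± 0.842 CPM in NZO/HlLtJ and 0.0415 CPM in WSB/EiJ (adjusted p 3.78e-07), with counts that were not whole in all 27 libraries.

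Of 21 other G1 regulators, 19 were tested and 12 called (background 74.2%). There were 6 higher (20.1% of all genes) and 4 lower (17.8%) in CAST/EiJ, and 5 higher (14.8%) and 1 lower (12.9%) in NZO/HlLtJ. E2f7, which encodes the E2F repressor closest to E2F8, averaged 21.7 ± 2.55 CPM (SD, n = 3) in PWK/PhJ but 0.0912 CPM in A/J, with a median of 0.255 CPM over the 27 libraries (edgeR adjusted p 3.91e-13). Against the mean of the other 8 strains, E2f7 was called higher and E2f8 lower in PWK/PhJ and CAST/EiJ. In A/J and NZO/HlLtJ E2f7 was called lower and E2f8 higher. Only E2f7 was called in 129S1/SvImJ (lower), and only E2f8 in C57BL/6J, NOD/ShiLtJ and WSB/EiJ. E2f2, an activator, was highest in NZO/HlLtJ at 2.85 ± 1.44 CPM and lowest in A/J at 0.411 CPM (adjusted p 1.86e-05), and E2f6, a repressor that does not bind the retinoblastoma protein, was highest in CAST/EiJ at 13.8 ± 1.28 CPM (SD, n = 3; adjusted p 3.87e-05). Of 20 other p53 targets, 19 were tested and 15 called, close to the background of 74.2%. There were 6 higher (14.8%) and 4 lower (12.9%) in NZO/HlLtJ, 2 higher (20.1%) and 6 lower (17.8%) in CAST/EiJ, and 5 higher (11.6%) and 1 lower (6.5%) in C57BL/6J. Bbc3, the pro-apoptotic gene for PUMA, had 10.5 ± 3.57 CPM in PWK/PhJ and 2.27 CPM in A/J (adjusted p 3.52e-06). Plk2, a stress-induced kinase gene, had 10.3 ± 5.60 CPM in PWK/PhJ and 1.02 CPM in NZO/HlLtJ (adjusted p 9.6e-06). Ercc5, a repair nuclease gene, had 20.3 ± 1.78 CPM in CAST/EiJ and 8.39 CPM in DBA/2J (adjusted p 1.23e-05). The summed level of the 20 targets was lowest in PWK/PhJ, at 327.2 ± 35.9 CPM, and CAST/EiJ, at 336.7 ± 20.2 CPM, and highest in WSB/EiJ, at 460.0 ± 10.5 CPM (SD, n = 3 each).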

How the data were processed

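Poly(A) RNA of hepatocytes was sequenced with the TruSeq RNA v2 kit, which the labels do not call strand-specific, in 27 libraries of 9 strains. The values the authors deposited are estimated counts per Ensembl gene, not scaled to depth, as the column totals show, and 14.7% of them were not whole. The submitters' processing notes name FastQC 0.11.5, DESeq2, GRCm38 and mm10 without their role. The aligner, the counting program and whether reads were aligned to each strain's own genome are not given in the sources used here. Alignment to a single reference could raise or lower the values of strains that differ most from it, such as the wild-derived ones. Symbols, transcript lengths and overlaps came from GENCODE M21 (GRCm38), and promoters from RefSeq (GRCm38.p6).

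Counts were rounded, filtered with filterByExpr by strain and scaled with TMM, and all adjusted p-values are Benjamini-Hochberg values of edgeR 4.0.16 quasi-likelihood tests over the 14482 genes kept, in R 4.3.3 with limma 3.58.1. A gene was called under 0.05. A single fit of all 27 libraries with strain as the only term gave the strain effect and 9 contrasts of each strain with the mean of the other 8. The fitting code was tested on simulated data, in which each changed gene was raised in a single strain. The strain effect recovered 50% of 2-fold and 79% of 4-fold changes there, so a gene not called may still differ among strains. DESeq2 1.42.0, other filters and scalings, a GC trend, marker covariates, a replicate block and leaving out each library were tried as alternatives, 35 in all for the strain effect. With 1 count at 0.0253 to 0.0515 CPM, differences below a few counts were not resolvable.

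The members and all gene lists were chosen with earlier results of these data known. Named genes were 8 standard markers, up to 16 other called members with at least 2-fold between strain means and at least 1 CPM, taken by F, and the 3 called genes of largest F in each of 4 pathway lists. Other members are mentioned by count, range or the place they hold in a count of 5 or fewer, and those values were seen before they were chosen. Library totals ran from 17015932 to 35078483 counts.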

Additional observations from a re-analysis of the deposited data

How the results depend on the processing

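The number of members called for the strain effect (32) was between 31 and 36 with DESeq2's size factors, DESeq2's own test, a minimum mean of 10 counts, the GC trend removed or Kupffer cell and endothelial marker covariates, 29 without the filter on low counts, and 27 to 32 over the 27 fits that left out 1 library, lowest without CAST/EiJ replicate 1. The total of contrast calls (88) was 68 with the covariates and 74 to 95 when a library was left out. With the covariates, members higher in NZO/HlLtJ went from 19 to 10, those higher in NOD/ShiLtJ from 13 to 21 and those lower in CAST/EiJ from 13 to 8; the cause was not tested. Leaving out 1 library gave 10 to 23 members higher in NZO/HlLtJ, 6 to 16 higher in NOD/ShiLtJ, 3 to 11 lower in WSB/EiJ and 7 to 14 lower in CAST/EiJ. The covariates also turned the direction of Top2a in A/J (-0.25, adjusted p 0.813) and of Ccnd2 in PWK/PhJ (-0.15, adjusted p 0.684); the cause was not tested. With DBA/2J replicate 3 and NOD/ShiLtJ replicate 1 both left out, 6 members were higher in NOD/ShiLtJ. That setting, and the covariates and GC trend in the contrasts, were chosen after seeing the data. Replicate numbers did not pair the libraries: same-numbered libraries of different strains had a mean correlation of 0.01 (-0.293 to 0.275), and 7 of 27 libraries were closest to their own number. With the replicate number as a block, 22 members were called for the strain effect (64.6% of all genes), 61 contrast calls remained in number, and 13 members were higher in NZO/HlLtJ, 8 higher in NOD/ShiLtJ and 7 lower in CAST/EiJ. Under the block the strain effects on Cdk1, Mdm2, Ccnb1 and Mcm3 had adjusted p of 0.0972, 0.0517, 0.052 and 0.0878, and without the filter on low counts that on Mdm2 was 0.186. Requiring over 3 counts rather than 1 took the members detected in all 27 libraries from 35 to 28, so that depth limits what can be said of most mitosis genes.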
